A study of Mus musculus with 4 samples.

Results

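Serotonin acts on its target cells, and back on the neurons that release it, through a family of receptors that are mostly coupled to G proteins. The 5-HT1 receptors are known to couple to Gi and Go and to lower cAMP. The 5-HT2 receptors couple to Gq and phospholipase C, and 5-HT7 couples to Gs. In the dorsal raphe nucleus, a brainstem source of serotonergic axons to the forebrain, 5-HT1A on the cell bodies is the main autoreceptor and slows their firing, and 5-HT1B serves as an autoreceptor on their axon terminals. The 7 genes described here, Htr1a, Htr1b, Htr5b, Htr2a, Htr2b, Htr2c and Htr7, were taken by symbol from the array's probe table. They are 7 of 16383 genes measured, with 1 probe each, and 6 further genes of the family are named by the same table.

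RNA labelled as dorsal raphe nucleus of male C57BL/6J mice aged 10 weeks was measured on 4 single-colour arrays, 1 per group, each carrying RNA pooled from 5 mice. Wild-type (WT) mice were either left non-stressed or stressed, and the other groups were stressed D2R-KO mice, which lack the dopamine D2 receptor, and D2LR-KO mice under the same stress, which lack its long form. Stressed mice swam by force for 6 min daily over 4 days and were dissected 12 h after the last swim, and no non-stressed knockout was among the arrays. The series sets D2 receptor loss beside 5-HT1A function in serotonergic neurons of stressed mice, so the level of Htr1a in each group is the first question here. With 1 array per group no difference could be tested, no value has a replicate error, and precision is limited by having 4 arrays in all. In bulk tissue fewer cells of a type and less RNA per cell cannot be told apart.

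Of the 42 differences formed by 7 genes and 6 comparisons, none reached 1.5-fold. Fold values here were taken from log2(signal + 50), where differences of dim spots are understated, and 1.5-fold is 0.58 in these units. Among all genes, 15.4% were at least 1.5-fold higher or lower in stressed WT against non-stressed WT, 2.06% in D2R-KO against non-stressed WT and 2.15% in D2LR-KO against non-stressed WT. The share was 18.0% in D2R-KO against stressed WT, 16.9% in D2LR-KO against stressed WT and 1.0% in D2LR-KO against D2R-KO. A count of 0 among 7 genes is close to those shares in the 3 comparisons without the stressed WT array, and 7 genes are too few to read more from it in the others. The widest difference was that of Htr2a between stressed WT and D2R-KO, 0.57 on the log2 scale.

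The count depended on how dim spots were treated. With an offset of 16 in place of 50, Htr2a and Htr2b passed 1.5-fold in stressed WT against non-stressed WT, where 24.7% of all genes did. They also passed in D2R-KO against stressed WT, together with Htr2c (27.7% of all genes), and in D2LR-KO against stressed WT (26.3%). No receptor gene passed in the comparisons without the stressed WT array, where the shares against non-stressed WT were 4.08% (D2R-KO) and 3.97% (D2LR-KO), and 1.88% between the knockouts. From the deposited values plus 5, the same genes passed in the same comparisons, among 31.5%, 37.2% and 33.3% of all genes, and none in the others, with 6.18%, 5.39% and 3.36%. With the brightness around each spot as background, Htr2a alone passed, in D2R-KO against stressed WT (15.2%). The shares of all genes in the comparisons where no receptor gene passed under that setting were 19.8% in stressed WT and 12.1% and 11.7% in D2R-KO and D2LR-KO against non-stressed WT, 14.2% in D2LR-KO against stressed WT and 5.47% between the knockouts.

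**Figure D1:**
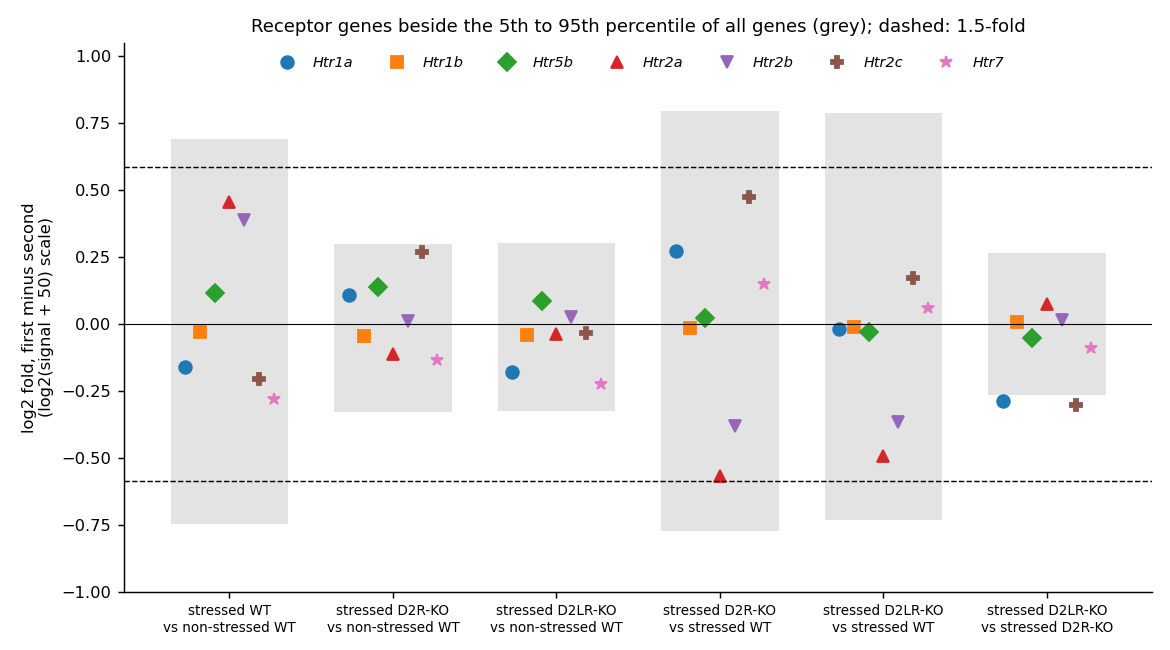
Log2 folds of the 7 receptor genes (symbols) in the 6 comparisons, first group minus second, on the log2(signal + 50) scale, with the 5th to 95th percentile of all genes in grey and 1.5-fold as dashed lines. No symbol crosses a dashed line, and the grey band is wider in the 3 comparisons that use the stressed WT array.

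The stressed WT array stood apart from the others. Across 16383 genes it correlated at r = 0.958 to 0.966 with the other arrays, which correlated at 0.990 to 0.994 among themselves. For the receptor genes, values that rest on it are given beside those without it. Between 91.0% and 91.6% of gene probes per array were detected, meaning more than 2 SD above the mean of blank spots. All 7 receptor probes were detected on all 4 arrays. Drd2, the targeted gene, had deposited intensities of 26.8 without and 43.8 with stress in WT, and 20.9 and 48.3 in stressed D2R-KO and D2LR-KO. Where its probe lies relative to the deleted parts is not known here, so it checks the labels little. The serotonergic markers Tph2, tryptophan hydroxylase, and Slc6a4, the serotonin transporter, were detected on all 4 arrays. All 11 of 11 measured serotonergic neuron markers were detected on each array.

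The regions just upstream of 3 of the genes are shown for orientation, Htr1a because it encodes the receptor the study turns on, and Htr2a and Htr2b because both were brightest on the stressed WT array. Each is the 250 bases before the RefSeq start of the gene in build GRCm38.p6, written 5′ to 3′ on the gene's strand. Htr1a lies on the plus strand with its window at chr13:105443443-105443692, Htr2a on the plus strand at chr14:74640624-74640873 and Htr2b on the minus strand at chr1:86111981-86112230. Capitals mark the letters GGGCGG, the GC box bound by Sp1, and AGAACA, the core that glucocorticoid receptor sites share, each searched on both strands. Also searched were TGACGTCA, the cAMP response element, and TATAAA, the TATA box, which do not occur in these windows.
Htr1a: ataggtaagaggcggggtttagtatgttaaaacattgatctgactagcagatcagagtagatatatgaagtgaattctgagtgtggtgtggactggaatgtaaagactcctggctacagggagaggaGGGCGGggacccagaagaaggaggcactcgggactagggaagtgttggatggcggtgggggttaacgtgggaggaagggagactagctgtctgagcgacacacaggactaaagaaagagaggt
Htr2a: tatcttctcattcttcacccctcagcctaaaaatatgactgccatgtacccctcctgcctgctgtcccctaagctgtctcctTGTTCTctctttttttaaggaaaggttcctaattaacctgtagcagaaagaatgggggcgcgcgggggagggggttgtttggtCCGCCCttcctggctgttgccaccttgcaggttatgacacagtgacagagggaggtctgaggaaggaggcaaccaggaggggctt
Htr2b: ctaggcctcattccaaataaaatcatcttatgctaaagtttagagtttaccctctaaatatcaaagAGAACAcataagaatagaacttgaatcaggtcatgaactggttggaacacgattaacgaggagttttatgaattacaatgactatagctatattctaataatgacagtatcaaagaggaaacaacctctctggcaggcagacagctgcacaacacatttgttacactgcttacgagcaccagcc
Among 32851 windows of the same length in the table, 32.7% held the GC box, 16.1% the AGAACA core, 1.55% the cAMP response element and 12.4% the TATA box. The Htr1a window held 1 GC box and no AGAACA, that of Htr2a held 1 of each, and that of Htr2b held 1 AGAACA. RefSeq entries were matched for 6 of the 7 genes, and none of the 4 motifs occurred in the windows of Htr1b, Htr2c and Htr7. A match of letters this short is a description and not a binding site.

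Htr1a, the 5-HT1A autoreceptor gene, was close to the middle of all genes on every array and varied little. Its probe (M200001910) had deposited intensities of 28.7 without and 22.6 with stress in WT, and 33.7 and 21.7 in stressed D2R-KO and D2LR-KO, on a scale whose array median is 25. The D2R-KO array was highest and the D2LR-KO array lowest, with a ratio of 1.55 between them as deposited and a log2 fold of -0.29 for D2LR-KO against D2R-KO. That difference kept its sign in all 6 other ways of computing the values, but its size ran from -0.10 with the brightness around each spot as background to -0.54 with the deposited values plus 5. In the main processing 4.12% of all genes were at least that much lower in this comparison. It does not involve the stressed WT array. The repeated control spots gave an SD of 0.20 for a log2 difference between these arrays, and the Htr1a difference of -0.29 is 1 to 2 of those SDs. Those spots are far brighter, at 3234 to 15588 units, so the spread at the brightness of Htr1a was not measured by them. Their SD was computed with the blank spots as background, so the value of -0.10 is not set against it.

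Against non-stressed WT, the log2 fold of Htr1a was -0.16 in stressed WT and 0.11 and -0.18 in the D2R-KO and D2LR-KO pools. The value for D2R-KO turned to -0.23 when the brightness around each spot was taken as background, so no direction is given for it. Against stressed WT, D2R-KO was at 0.27 and D2LR-KO at -0.02. Stressed WT and D2LR-KO were thus neighbours in the order of levels, and their difference changed sign in 2 of 6 other settings.

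Tph2 and Slc6a4, which make and take up serotonin, varied more over the arrays than Htr1a. Tph2 had deposited intensities of 31.4 without and 10.7 with stress in WT, and 264.6 and 151.5 in stressed D2R-KO and D2LR-KO. Slc6a4 stood at 11.6, 6.8, 89.6 and 43.5 in the same order. Between stressed WT and D2R-KO, Tph2 therefore differed 24.7-fold and Slc6a4 13.2-fold as deposited, where Htr1a differed 1.49-fold. Against non-stressed WT, which leaves the stressed WT array out, the D2R-KO ratios were 8.43 for Tph2, 7.72 for Slc6a4 and 1.17 for Htr1a. On D2LR-KO, Tph2 was 14.2-fold and Slc6a4 6.40-fold the stressed WT value, while Htr1a was 0.96 of it. Against non-stressed WT the D2LR-KO ratios were 4.82, 3.75 and 0.756 for the same genes. Summed over the 11 serotonergic neuron markers, deposited intensity was 2656 without and 2215 with stress in WT, and 3803 and 3981 in stressed D2R-KO and D2LR-KO. Of these 11 markers, 4 were at least 1.5-fold higher in D2R-KO and 3 in D2LR-KO against non-stressed WT, with none lower. Among all genes 2.06% and 2.15% passed in either direction there. Htr1a was highest on one of the arrays with the high sums and lowest on the other, and the part of tissue make-up in these values was not tested.

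**Figure D2:**
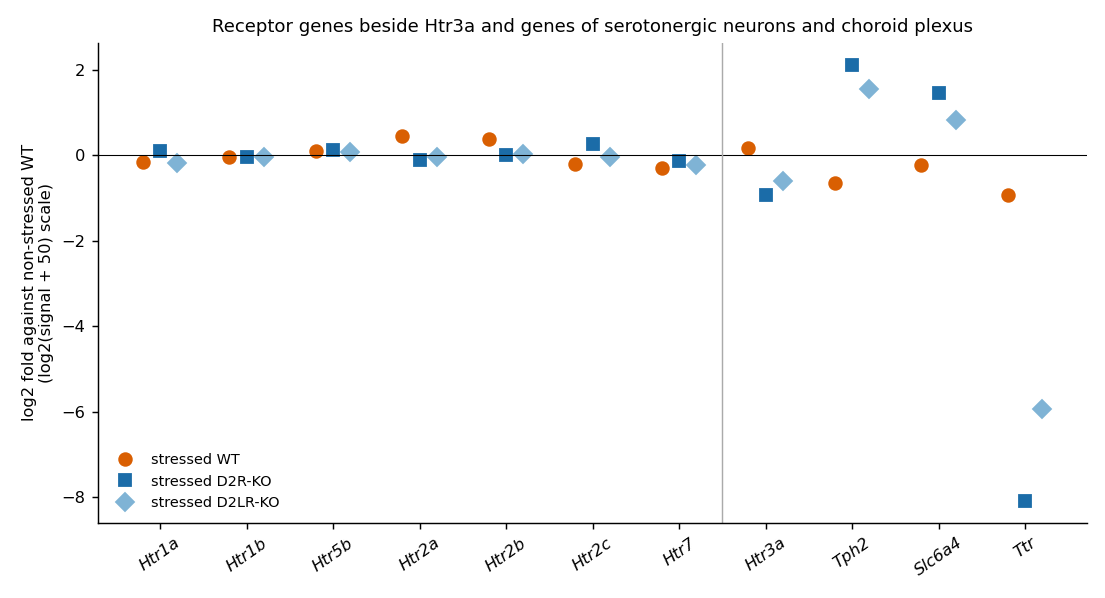
Log2 fold of each gene against non-stressed WT on the log2(signal + 50) scale for each of the 3 stressed groups, 1 array each. The 7 receptor genes to the left of the vertical line stay within 0.46 of 0, while Tph2 reaches 2.13 and Ttr -8.09.

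Htr1b and Htr5b were dimmer than Htr1a. Htr1b, the gene of the terminal autoreceptor 5-HT1B, was barely above the blank spots with its probe M200014906. Its deposited intensities were 2.5 without and 2.3 with stress in WT, and 1.6 and 1.7 in stressed D2R-KO and D2LR-KO. The spots lay 4.03 to 6.35 SDs of the blank spots above their mean, against 47.2 to 140 for Htr2a, Htr2c and Htr1a together. The knockout arrays were lower than both WT arrays as deposited, by up to 1.56-fold, but none of the log2 folds of Htr1b exceeded 0.05 in size. At this brightness a difference between groups was not detectable.

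Htr5b encodes the 5-HT5B receptor, which rodents keep and humans have lost. Its probe (M200001985) read 6.2 without and 10.1 with stress in WT, and 9.6 and 8.3 in stressed D2R-KO and D2LR-KO. All 3 stressed arrays were higher than the non-stressed array, by log2 folds of 0.12, 0.14 and 0.09, and each of these kept its sign in 6 of 6 other settings. In stressed WT the value ran from 0.06 with the brightness around each spot as background to 0.43 with the deposited values plus 5. The 3 values share the same non-stressed array and are small beside the spread of all genes, of which 31.5%, 17.6% and 23.8% were at least as much higher. Among the stressed arrays, D2R-KO and stressed WT exchanged places between the deposited and the normalized values, so their order is not settled.

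**Figure D3:**
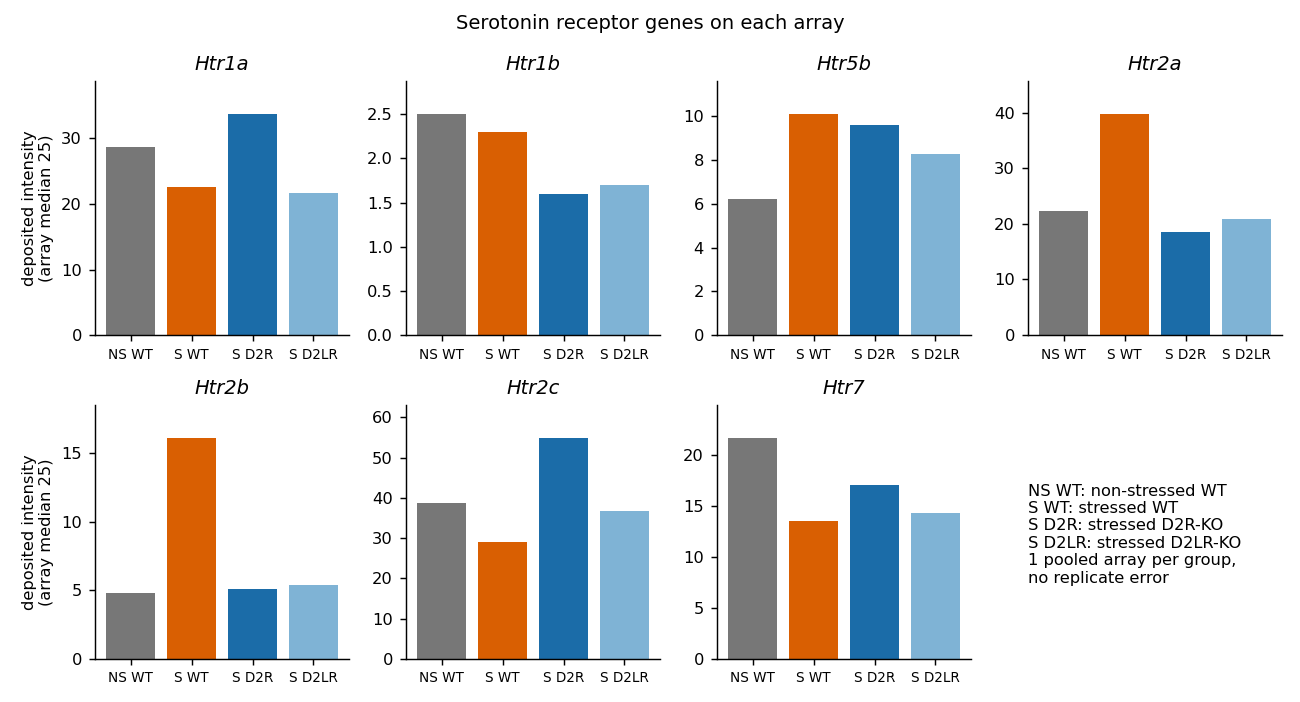
Deposited intensity (array median 25) of each receptor gene on the 4 arrays, with a linear axis from 0 for each gene and no error bars because each group is 1 array. Htr2a and Htr2b are tallest on stressed WT, at 39.7 and 16.1, and Htr1a and Htr2c on D2R-KO, at 33.7 and 54.9.

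Among the Gq-coupled receptors, Htr2a and Htr2b were higher on the stressed WT array than on the 3 others, and Htr2c was lowest there in the main processing. With the brightness around each spot as background, the log2 fold of Htr2c in stressed WT against non-stressed WT turned from -0.21 to 0.05. Htr2a encodes 5-HT2A, the receptor of cortical pyramidal cells through which serotonergic hallucinogens act. Its probe (M300009650) read 22.3 without and 39.7 with stress in WT, and 18.5 and 20.9 in stressed D2R-KO and D2LR-KO. Only stressed WT stood apart, and the other 3 arrays lay within a ratio of 1.21. Stressed WT exceeded non-stressed WT by a log2 fold of 0.46, D2R-KO was at -0.57 against stressed WT and D2LR-KO at -0.49, with the same sign in 6 of 6 other settings each. These 3 values share 1 array. Of all genes, 11.2% were at least as much higher in stressed WT against non-stressed WT, and 9.03% at least as much lower in D2R-KO against stressed WT. Without the stressed WT array, the log2 range of Htr2a fell from 0.57 to 0.11. Markers of cerebral cortex and hippocampus were also highest on that array, with a summed deposited intensity of 6433 against 4738 in non-stressed WT. Of 9 such markers, 2 were at least 1.5-fold higher there and none lower (median log2 fold 0.32). With the brightness around each spot as background that median fell to 0.05. In that comparison 15.4% of all genes passed 1.5-fold in either direction, and 9 markers are too few to set against that share. The part of forebrain tissue in the level of Htr2a was not tested.

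Htr2b encodes 5-HT2B, a receptor of vascular and meningeal cells that raphe serotonergic neurons also carry. Its probe (M200012850) had intensities of 4.8 without and 16.1 with stress in WT, and 5.1 and 5.4 in stressed D2R-KO and D2LR-KO. The stressed WT value was 3.35 times the non-stressed one as deposited, which was the widest ratio among the 7 genes, and 0.39 on the log2(signal + 50) scale. With the brightness around each spot as background this fell to 0.14. The other 3 arrays lay within a ratio of 1.13, and the log2 range without stressed WT was 0.02. On the stressed WT array markers of the cells named above were low. The meninges and fibroblast markers summed to 796 there, against 1546 in non-stressed WT and 1058 and 2881 in the D2R-KO and D2LR-KO pools, with all 12 of 12 detected on each array. The vessel wall markers summed to 1148 in stressed WT, against 2317, 2617 and 3938. Htr2b was thus highest where both sums were lowest. In stressed WT against non-stressed WT, 5 of 12 meningeal and 4 of 12 vessel wall markers were at least 1.5-fold lower, with none higher. In either direction 15.4% of all genes passed 1.5-fold there. The part of these tissues in the level of Htr2b was not tested.

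Htr2c encodes 5-HT2C, a receptor that is abundant in choroid plexus epithelium and also present in neurons. Its probe (M200000134) read 38.8 without and 29.1 with stress in WT, and 54.9 and 36.8 in stressed D2R-KO and D2LR-KO. D2R-KO was highest and stressed WT lowest, a log2 fold of 0.47 that fell to 0.04 with the brightness around each spot as background. Without the stressed WT array the widest difference was that of D2LR-KO against D2R-KO, at -0.30, and it turned to 0.07 under the same setting. D2R-KO exceeded non-stressed WT by 0.27, where 6.41% of all genes were at least as much higher, and kept that sign in 6 of 6 other settings, with a value of 0.09 with the brightness around each spot as background.

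Ttr, transthyretin, is the leading transcript of the choroid plexus. It had deposited intensities of 12884 without and 5720 with stress in WT, and 20.3 and 193.1 in stressed D2R-KO and D2LR-KO. Htr2c was therefore highest, as deposited, on the array where Ttr was lowest. Ttr was lower in stressed WT and D2LR-KO than in non-stressed WT. Htr2c was also lower there in the main processing, with log2 folds of -0.21 and -0.03. With the brightness around each spot as background these turned to 0.05 and 0.15, so no direction is given for them. The whole list of choroid plexus and ependyma markers summed to 15652 without and 6742 with stress in WT, and 2320 and 2126 in stressed D2R-KO and D2LR-KO. On every array 11 of 11 measured markers were detected. Ttr is one of them and made up 12884 and 5720 of the WT sums, but 20.3 and 193.1 of the knockout sums. The fall in the sums is thus largely that of Ttr. Against non-stressed WT, 8 of 11 were at least 1.5-fold lower in stressed WT and 7 of 11 in each knockout, while Htr2c stayed within 0.27. The part of choroid plexus tissue in the level of Htr2c was not tested.

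**Figure D4:**
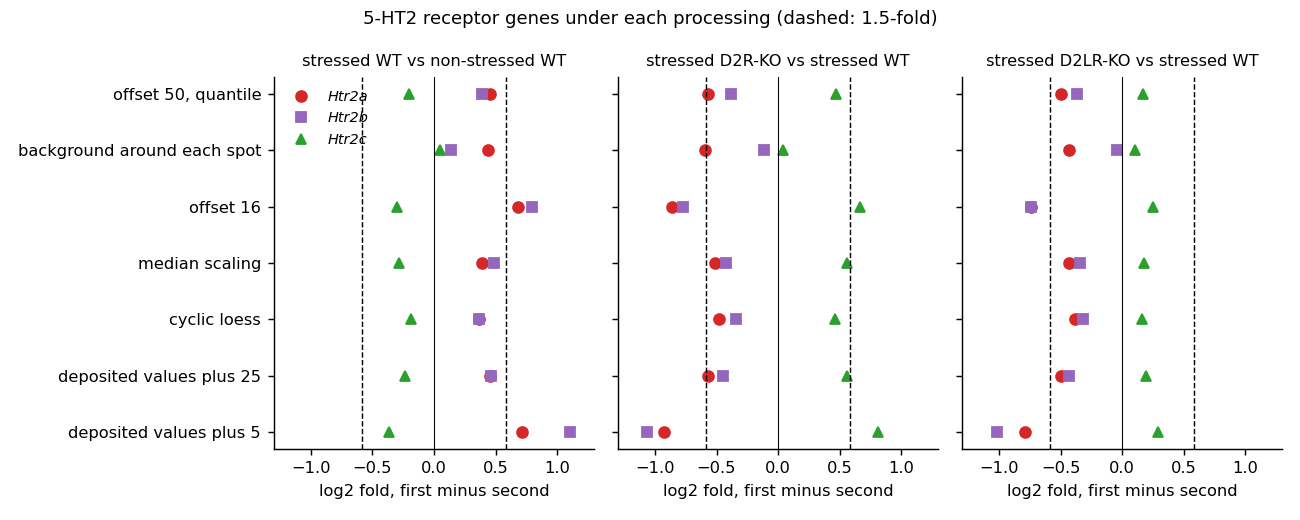
Log2 fold of Htr2a, Htr2b and Htr2c (horizontal axis, first group minus second) in the 3 comparisons that use the stressed WT array, under the main processing (top line, offset 50 and quantile normalization) and 6 others; dashed lines mark 1.5-fold. Htr2a and Htr2b pass 1.5-fold in each panel with an offset of 16 and with the deposited values plus 5, and Htr2b and Htr2c move towards 0 with the background around each spot.

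Htr7 encodes 5-HT7, the Gs-coupled member, which is expressed in thalamus, hippocampus and raphe. Its probe (M200002665) read 21.7 without and 13.5 with stress in WT, and 17.1 and 14.3 in stressed D2R-KO and D2LR-KO. All 3 stressed arrays were below the non-stressed one, with log2 folds of -0.28 in stressed WT and -0.13 and -0.22 in the D2R-KO and D2LR-KO pools, and each kept its sign in 6 of 6 other settings. With the deposited values plus 5 they were -0.53, -0.27 and -0.47. Of all genes, 19.8%, 16.1% and 9.15% were at least as much lower in those comparisons. Since the same non-stressed array enters all 3, the shared direction of Htr7, and that of Htr5b, also reads as 1 array against 3.

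Of the 6 further family genes on the array, 5 had no difference of 1.5-fold in any comparison made. Among all genes 1.0% to 18.0% passed it, depending on the comparison, and 5 dim genes are too few to read more from the count. The exception was Htr3a, a subunit of the 5-HT3 ion channel, which in forebrain marks a class of interneurons. It had deposited intensities of 37.4 without and 43.0 with stress in WT, and 5.7 and 14.6 in stressed D2R-KO and D2LR-KO. Both WT arrays were thus above both knockout arrays. Its log2 folds against non-stressed WT were 0.17 in stressed WT and -0.92 and -0.59 in the D2R-KO and D2LR-KO pools, and the knockout values kept their sign in 6 of 6 other settings. In D2R-KO 0.455% of all genes were at least that much lower. By summed intensity, markers of cerebral cortex and hippocampus were likewise highest in stressed WT and lower in both knockouts than in both WT groups. The sums of the knockouts stood in the opposite order to Htr3a, but the medians over the markers did not. The median log2 fold against non-stressed WT was -0.75 in D2R-KO and -0.51 in D2LR-KO. All 9 of 9 measured markers were detected on each array, with sums of 4738 without and 6433 with stress in WT, and 1881 and 1604 in stressed D2R-KO and D2LR-KO. Of these 9 markers, 6 were at least 1.5-fold lower in D2R-KO and 4 in D2LR-KO against non-stressed WT, with none higher. Among all genes 2.06% and 2.15% passed 1.5-fold in either direction there. The part of forebrain tissue in the level of Htr3a was not tested. Htr2a, which forebrain neurons also carry, had the same order of arrays as Htr3a as deposited. It stood at 39.7 in stressed WT, 22.3 in non-stressed WT, 20.9 in D2LR-KO and 18.5 in D2R-KO. Apart from stressed WT these lay within a ratio of 1.21, so their order is not settled. The log2 fold of Htr2a in D2LR-KO against non-stressed WT turned from -0.04 to 0.003 with the brightness around each spot as background. Htr1f, Htr5a and Htr6 were dim throughout, with deposited intensities of 2.4 to 5.7. Htr3b and Htr4 had deposited intensities of at most 1.4 and 2.6. Htr3b was not detected on D2LR-KO, and Htr4 neither there nor on stressed WT, so Htr4 was not compared between those arrays.

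Over all 13 family genes on the array, the median log2 fold lay between -0.04 and 0.01 in the 6 comparisons, where the median of all genes lay between -0.01 and 0.01. Of 15 genes of serotonin synthesis, transport and breakdown, 3 were at least 1.5-fold higher and none lower in D2R-KO against non-stressed WT (median 0.14). The counts were the same in D2LR-KO against non-stressed WT (median 0.23). Among all genes, 2.06% and 2.15% passed 1.5-fold in either direction there. The 3 were Tph2, Slc6a4 and Gchfr, a regulator of the cofactor needed by tryptophan hydroxylase. Gchfr was at 1.17 in D2R-KO and at 0.88 in D2LR-KO, but with the brightness around each spot as background these became -0.01 and 0.43, both short of 1.5-fold. Against stressed WT, 4 of the 15 genes were higher and 1 lower in each knockout, where 18.0% (D2R-KO) and 16.9% (D2LR-KO) of all genes passed. In stressed WT against non-stressed WT 1 was lower and none higher (15.4% of all genes), and likewise in D2LR-KO against D2R-KO (1.0%).

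Some transducers that these receptors use passed 1.5-fold in stressed WT against non-stressed WT, where 15.4% of all genes did. Of 11 compared genes of Gi and Go coupling, 1 was at least 1.5-fold higher and 1 lower, the alpha subunits Gnai2 at 0.87 and Gnai1 at -0.98. Of 10 genes of Gq coupling, 1 was higher and 3 lower, among them the inositol trisphosphate receptor Itpr1 at -0.89 and the protein kinase C gene Prkcb at -0.88. Of 11 genes of Gs coupling, 3 were higher and none lower, led by the adenylyl cyclase Adcy2 at 0.94 and Gnas, the Gs alpha subunit, at 0.78. With the brightness around each spot as background Gnas turned to -0.01, and Itpr1 at -0.47 and Prkcb at -0.39 no longer passed 1.5-fold. With median scaling Gnai2 at 0.34 and Adcy2 at 0.43 no longer did. In D2R-KO against non-stressed WT, which leaves that array out, the counts were 0, 1 and 1 for the 3 lists, all of them lower. The kinase subunit Prkacb was at -0.90 and Prkca at -0.70. Prkca turned to 0.14 with the brightness around each spot as background. In D2LR-KO against non-stressed WT they were 1, 0 and 1, again lower, with Gnai1 at -0.59 and Prkacb at -0.98. Gnai1 fell short of 1.5-fold there, at -0.34, with the brightness around each spot as background. The shares of all genes past 1.5-fold in these comparisons were 2.06% and 2.15%. Between the knockouts no member of the 3 lists reached 1.5-fold.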

How the data were processed

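Spot brightness was measured at 635 nm on 4 single-colour arrays, from 3 scans each at different gain, per the file headers, which also give straight-line fits between the scans. How they were joined is not stated there. The deposited scanner files hold the median intensity of each spot and around it, not background-subtracted. The authors' deposited value table holds intensity that, from the values, equals the spot median minus a constant, divided by 1.51 to 2.05 depending on the array, which puts each array median at 25.

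Spot medians were corrected with normexp (function nec of limma 3.58.1, R 4.3.3), with 2736 blank spots as negative controls and an offset of 50, then put on the log2 scale and quantile normalized. Of 23473 probes, 9 with unusable spots were left out. Genes with several probes kept the brightest. The deposited intensities are given as the authors' values, and differences were computed from the normalized ones. A gene was compared when detected on at least 1 of the 2 arrays.

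These steps were tested on simulated data drawn from the non-stressed WT array alone. There 92.0% of 2-fold increases and 70.0% of 2-fold decreases passed 1.5-fold, and 0 of 23265 unchanged probes did. Only probes brighter than the array median were altered, so recovery at the brightness of Htr1b, Htr5b and Htr2b was not measured. The simulated noise was set in advance and not taken from the spread between arrays, so the count of 0 does not carry over to the real comparisons. Repeated control spots gave SDs of 0.10 to 0.20 for a log2 difference between arrays; they are bright (3234 to 15588 units), so the spread of dim spots was not measured by them, and they cover neither mice nor labellings.

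The receptor genes, the lists and the tests were chosen with earlier results of these data known. All 7 receptor genes are named, with Tph2, Slc6a4, Drd2 and Ttr, and up to 2 members of each list with the largest folds in a comparison. Htr3a, and which members of the family are described with it, was chosen after its values were seen. Genes with a profile like a receptor's were to be named where that receptor varied at least 1.5-fold over the arrays, which none did.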

Additional observations from a re-analysis of the deposited data

How the results depend on the processing

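In the main processing 0 of the 7 receptor genes passed 1.5-fold in each of the 6 comparisons; no tool tests 1 array against 1, so there is no p-value to set beside these counts. With an offset of 16, 2 genes passed in stressed WT against non-stressed WT (Htr2a and Htr2b), 3 in D2R-KO against stressed WT (those and Htr2c) and 2 in D2LR-KO against stressed WT. With the deposited values plus 5 the counts were again 2, 3 and 2, for the same genes. With the background around each spot, 1 gene, Htr2a, passed in D2R-KO against stressed WT. The other counts stayed at 0 under every setting tried, including median scaling, cyclic loess, the deposited values plus 25, the 3 choices of filter or detection limit and a 2-fold threshold. In the 3 comparisons without the stressed WT array, normalizing the other 3 arrays alone, a choice made after seeing the data, also left 0. Of the 42 differences, 32 kept their sign with the background around each spot, 42 with an offset of 16, 36 with median scaling, 40 with cyclic loess and 41 with each form of the deposited values. The 14 of size 0.2 or more kept it throughout, except 2 with the background around each spot, both of Htr2c. The deposited values are scaled by array median alone. Brightness limits the dimmest gene, Htr1b. No paired analysis was possible because each group is 1 array.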

Other observations

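Among 12 genes whose products bind or regulate serotonin receptors, 3 passed 1.5-fold upwards and 1 downwards in stressed WT against non-stressed WT, where 15.4% of all genes passed in either direction. In D2R-KO against non-stressed WT 1 was higher and none lower, with 2.06% of all genes past it. Mpdz, a PDZ scaffold that binds the tail of 5-HT2C, was at 1.08 in stressed WT and 0.19 in D2R-KO, both against non-stressed WT. S100a10, also called p11, which helps to bring 5-HT1B to the cell surface, was at -0.80 in stressed WT against non-stressed WT, and at 0.70 in D2R-KO against stressed WT but -0.10 in D2R-KO against non-stressed WT. The enzyme gene Adarb1, which edits Htr2c transcripts, was at 0.71 in D2R-KO against non-stressed WT. In D2LR-KO against non-stressed WT no member of the list reached 1.5-fold, but Adarb1 came just short of it, at 0.57. With the brightness around each spot as background Adarb1 was at -0.28 there. Between the knockouts, D2LR-KO against D2R-KO, it was at -0.14 in the main processing. With the brightness around each spot as background, S100a10 turned to 0.04 in stressed WT and Adarb1 to -0.26 in D2R-KO, both against non-stressed WT, and S100a10 to 0.22 in D2R-KO against stressed WT, short of 1.5-fold. These values rest on 1 array per group and were not tested.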
